A study of Oryctolagus cuniculus with 3 samples.

Results

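TRPV5, SLC8A1, SLC26A4, SLC9A3, ATP1B3 and ABCB1 are membrane transporters that were compared between rabbit blastocysts from slow-frozen and from vitrified morulae. They were taken by name from genes whose ratios stood out in earlier results of this same comparison, so their ratios are given here as a description and without a test. The 6 genes have 16 probes, all of them among the 22839 gene probes of the deposited value table, in which 6516 genes carry a symbol. TRPV5 has 3 probes, SLC8A1 has 6, SLC26A4 has 3, ATP1B3 has 2, and SLC9A3 and ABCB1 have 1 each. Both groups came from artificial insemination. Their morulae were recovered on day 3 of development, preserved by one of the methods, moved into recipient does and collected 3 days later, on day 6. The frozen group was slow-frozen, by a protocol that the sources do not describe. The vitrified group was held at 20 °C for 2 min in 12.5% dimethyl sulphoxide and 12.5% ethylene glycol, then for 30 s in 20% of each, and plunged into liquid nitrogen. The strain of the does and the number of embryos behind an RNA sample are not given either, and no fresh embryos were analysed here. Each of 3 two-channel Agilent arrays, which the labels call biological replicates, held 1 frozen and 1 vitrified sample of 100 ng of labelled RNA. Frozen RNA carried the red dye Cy5 on replicates 1 and 3 and the green dye Cy3 on replicate 2.

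A blastocyst is a hollow ball whose outer epithelium, the trophoblast, pumps fluid into the cavity. The sodium pump on the inner side of this epithelium drives sodium into the cavity, on the outer side exchangers bring sodium in for protons and swap anions across the membrane, and water follows the salt. Calcium enters cells through channels and leaves through pumps and exchangers, and efflux pumps of the ABC family push lipophilic compounds out. ATP1B3 encodes a beta subunit of the sodium pump, and SLC9A3 is a sodium-proton exchanger of apical membranes, also called NHE3. TRPV5 is a calcium channel of transporting epithelia and SLC8A1 is the sodium-calcium exchanger NCX1. SLC26A4 is pendrin, an exchanger of chloride, iodide and bicarbonate, and ABCB1 is the multidrug efflux pump P-glycoprotein.

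The probes are the measuring sequences, so where they lie in the transcript decides which part of an RNA was read. They are 60 bases long and are written here 5′ to 3′ as the scanner files give them, with the start of the probe in its transcript. Capitals mark stretches shared by neighbouring probes of a gene, and in ATP1B3 the stop codon that closes the frame open over the probe. For the downstream probes of TRPV5, SLC8A1 and ABCB1 a stretch of 30 bases is shown. In TRPV5 it is the whole overlap of the probes starting at 2603 and 2633. In SLC8A1 it is the first part of the 56 bases common to 5 probes whose starts lie within 4 bases of each other, so that these probes repeat 1 measurement.
TRPV5 probe at 279: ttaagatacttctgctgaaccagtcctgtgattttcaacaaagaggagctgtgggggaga
TRPV5 overlap at 2633: TTCTCCATACTAGCAATCAAACTTCAACTA
SLC8A1 probe at 2052: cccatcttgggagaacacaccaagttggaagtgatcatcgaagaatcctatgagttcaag
SLC8A1 overlap at 3106: GCTGTACTCTCCAGGTTCATAAATTGCTAA
SLC26A4 probe at 2151: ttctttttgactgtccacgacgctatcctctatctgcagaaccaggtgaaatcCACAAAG
SLC26A4 probe at 2204: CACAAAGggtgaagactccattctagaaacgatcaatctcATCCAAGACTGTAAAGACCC
SLC26A4 probe at 2244: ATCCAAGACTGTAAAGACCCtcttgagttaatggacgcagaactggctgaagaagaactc
SLC9A3 probe at 1800: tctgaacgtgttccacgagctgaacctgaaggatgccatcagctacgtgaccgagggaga
ATP1B3 probe at 735: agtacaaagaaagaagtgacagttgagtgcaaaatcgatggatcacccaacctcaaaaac
ATP1B3 probe at 795: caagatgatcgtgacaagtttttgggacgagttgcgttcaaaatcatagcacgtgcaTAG
ABCB1 start of the probe at 4163: gagattgtcaggtggggcagagtggcttaa

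The array's annotation places these probes on a rabbit assembly that it does not name. The TRPV5 probe at 279 covers chr7:9206749-9206944, a span of 196 bases for 60 bases of RNA, so it crosses an intron, while the probe at 2603 lies in one piece at chr7:9228809-9228868. The SLC26A4 probe at 2204 spans chr7:44199351-44202212 and also crosses an intron, with the probe at 2151 on one side of it and that at 2244 on the other. SLC8A1 was read at chr2:146061580-146061639 and near chr2:146122948-146123007, ATP1B3 at chr14:35377133-35377192 and chr14:35377193-35377252, and ABCB1 at chr10:40888373-40888432. The SLC9A3 probe is unplaced in that annotation. The downstream SLC8A1 probes and the ABCB1 probe hold a stop codon in all 3 frames of the sense strand. Their GC content was 35.0% to 38.3%, as was that of the downstream TRPV5 probes, against a median of 43.3% (quartiles 40.0% and 45.0%) over the 22839 probes of the table.

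Each ratio is the log2 of the frozen over the vitrified signal, so that 1 stands for a doubled signal in frozen embryos. The table differed from the processed red over green signals of replicates 1 and 3 by at most 2.79e-06, which gives the direction of those columns. For replicate 2 the direction is likely but not stated: its 10 spike-in probes, which follow the dye, correlated at -0.996 with those of replicate 1 and -0.998 with those of replicate 3, so the dye swap had been turned back in its column. All values were therefore also computed with the sign of replicate 2 turned. The arrays were unlike one another: over all probes, which share the arrays and are no replicates, Pearson's r was -0.36 between the first pair of arrays (Spearman's rho -0.41) and 0.48 between the last pair (rho 0.34), and for replicates 1 and 3 it was -0.014. In limma's moderated test against 0 with Benjamini-Hochberg adjustment 0 probes (0.0%) had an adjusted p under 0.05, and 1020 (4.47%) had an unadjusted p under 0.05, 1.84% with higher and 2.62% with lower signals in frozen embryos. Without replicate 1 the adjusted test called 796 probes (3.49%), and without replicate 2 or 3 it called 0. Of the markers for the embryo's layers, 7 of 14 trophoblast genes, 4 of 11 epiblast genes and 7 of 14 hypoblast genes were measured, as were 3 of 10 uterine and 4 of 10 blood genes. The trophoblast keratins KRT8 and KRT19 were among them, while CDX2, NANOG, SOX2 and GATA6 had no named probe in the table.

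TRPV5 had higher signals in frozen embryos at the downstream end of its transcript on each of the 3 arrays. Its brightest probe, at 2603, had log2 ratios of 2.14, 1.06 and 0.96 on replicates 1, 2 and 3, a mean of 1.38 ± 0.65 (SD, n = 3) or 2.61-fold. The overlapping probe at 2633 gave 2.24, 0.91 and 1.03, a mean of 1.40 ± 0.74. Replicate 1 was the high array for both probes, and the other arrays lay close together. The signals behind the probe at 2603 were 6061 intensity units in frozen and 1377 in vitrified embryos on replicate 1, and 3731 and 1923 on replicate 3. Those behind the probe at 2633 were 2656 and 561 on replicate 1 and 1662 and 814 on replicate 3. The error that the scanner software assigns to a single ratio, here converted to log2, was 0.28 on replicate 1 and 0.22 on replicate 3 for the probe at 2603. This error covers the spot alone and not the spread between embryo samples.

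The upstream TRPV5 probe at 279 did not share these ratios. It gave -0.05, 0.77 and -0.08, a mean of 0.21 ± 0.48 (SD, n = 3), with only replicate 2 clearly above 0. This probe was dim, at 34.1 units in frozen and 35.3 in vitrified embryos on replicate 1 and 83.7 and 88.7 on replicate 3. Its raw signal was 2.40 to 4.44 times the local background, against 11.1 to 221 times for the downstream probes. Subtracting the upstream from the downstream log2 ratio left 2.29, 0.14 and 1.11 on the 3 arrays. Over 188 transcripts with named probes at least 500 bases apart, the median of this difference was 0.26, -0.13 and -0.06 on the same arrays. No other transcript had a larger one than TRPV5 on replicates 1 and 3, and 13.3% had a larger one on replicate 2. TRPV5 was chosen for its ratios and its upstream probe is dim, so nothing is read from this rank. Replicate 1, where downstream probes ran high in general, is also the array on which the downstream TRPV5 probes were highest; the part of this in the TRPV5 ratio was not tested. A changed count of the cells that make an RNA and a changed amount of RNA per cell cannot be told apart in whole embryos. This holds here and in all results below.

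**Figure D1:**
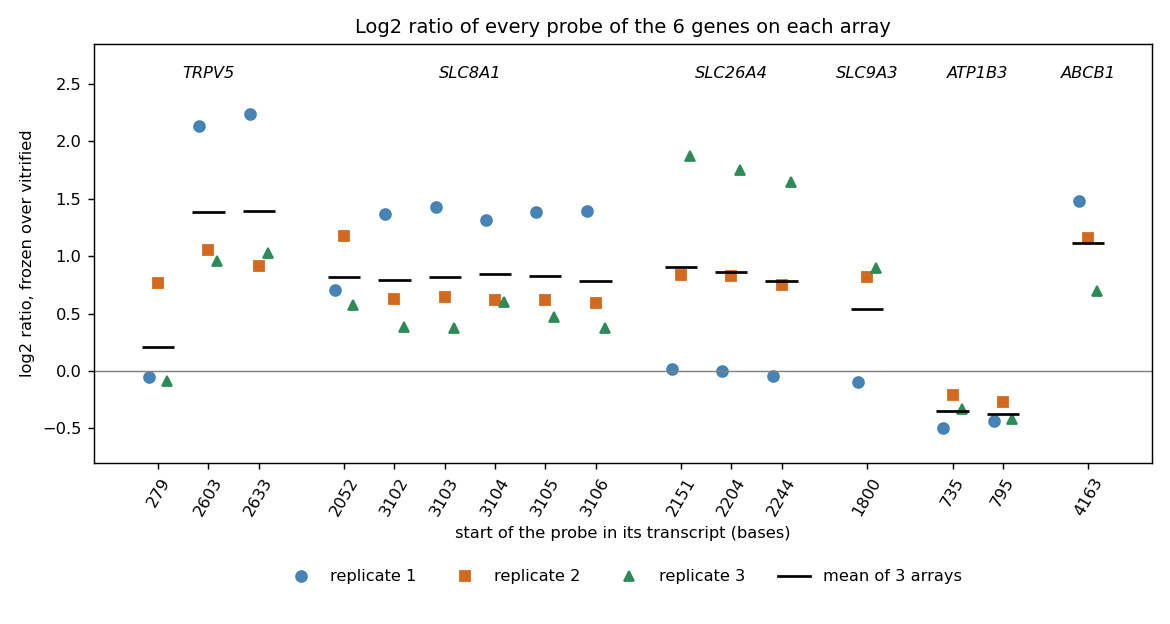
Log2 ratio of frozen over vitrified (vertical axis) for each of the 16 probes, ordered by gene and by start in the transcript in bases (horizontal axis); symbols are the 3 arrays and bars are their means. TRPV5 at 2603 and 2633, the 5 overlapping SLC8A1 probes and ABCB1 were highest on replicate 1, SLC26A4 and SLC9A3 lay near 0 on replicate 1 and above 0.7 on replicates 2 and 3, and ATP1B3 lay below 0 throughout.

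SLC8A1 had higher signals in frozen embryos on every array and with each of its 6 probes. The brightest, at 3104, had log2 ratios of 1.32, 0.62 and 0.60 on replicates 1, 2 and 3, a mean of 0.85 ± 0.41 (SD, n = 3) or 1.80-fold. Its signals were 1038 units in frozen and 416 in vitrified embryos on replicate 1, and 575 and 380 on replicate 3. In these units the vitrified signal was similar on both arrays and the frozen one was not. Signals were not scaled between arrays here, so they do not show which group differed. The other 4 overlapping probes, at 3102, 3103, 3105 and 3106, gave 1.37, 1.43, 1.38 and 1.40 on replicate 1, 0.63, 0.65, 0.62 and 0.59 on replicate 2, and 0.38, 0.37, 0.47 and 0.37 on replicate 3. In the same order their signals were 1005, 1023, 929 and 855 units in frozen and 389, 380, 356 and 324 in vitrified embryos on replicate 1. On replicate 3 these were 524, 492, 511 and 406 in frozen and 403, 380, 368 and 313 in vitrified embryos. The SD over these 5 probes was 0.04, 0.02 and 0.10 on replicates 1, 2 and 3. The means over the 5 probes were 1.38, 0.62 and 0.44, so replicate 1 was the high array for this stretch of the transcript.

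The upstream SLC8A1 probe, at 2052, reached a like mean by another order of the arrays. It gave 0.70, 1.17 and 0.58, a mean of 0.82 ± 0.31 (SD, n = 3), with replicate 2 the high array. It was dim, with 67.3 units in frozen and 41.3 in vitrified embryos on replicate 1 and 46.7 and 31.3 on replicate 3. The downstream minus upstream difference in ratio, taken at the probe at 3106, was 0.69, -0.58 and -0.20 on the 3 arrays and had the sign of the median over the 188 transcripts on each. With the sign of replicate 2 turned the probe at 2052 had a mean of 0.04 and the probe at 3104 one of 0.43.

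ABCB1, read by a single probe at 4163, had higher signals in frozen embryos on every array. Its log2 ratios were 1.49, 1.16 and 0.70 on replicates 1, 2 and 3, a mean of 1.11 ± 0.40 (SD, n = 3) or 2.17-fold. The signals were 3181 units in frozen and 1136 in vitrified embryos on replicate 1 and 1926 and 1187 on replicate 3. As in SLC8A1, the vitrified signal in these unscaled units was similar on both arrays and the ratio was largest on replicate 1. With 1 probe, no position in the transcript could be set against another.

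**Figure D2:**
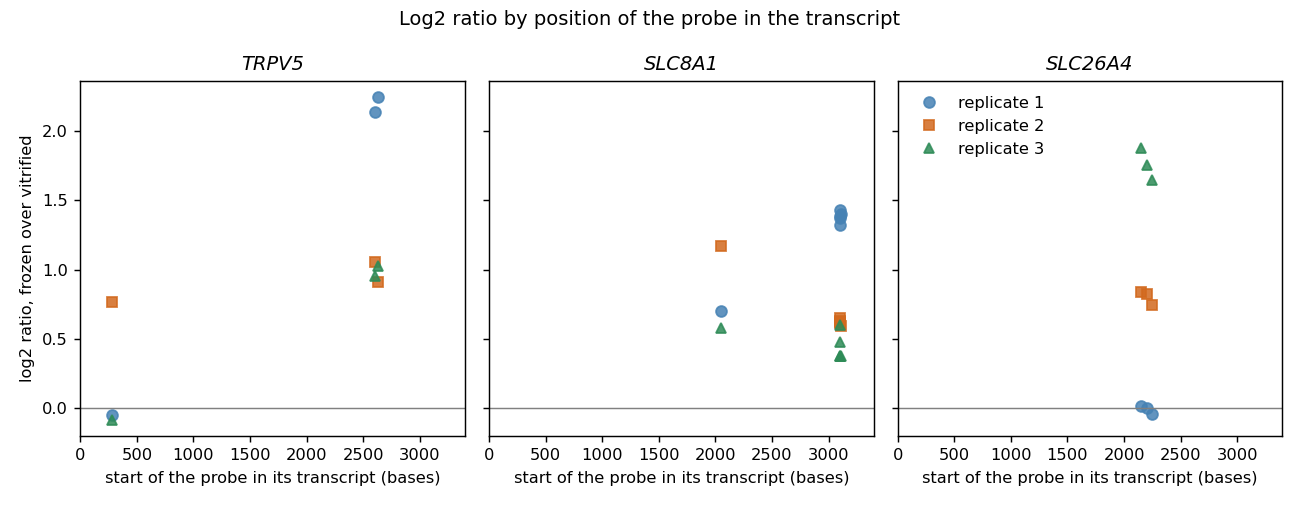
Log2 ratio of frozen over vitrified (vertical axis) against the start of the probe in its transcript in bases (horizontal axis) for TRPV5, SLC8A1 and SLC26A4. Symbols are the 3 arrays. In TRPV5 replicates 1 and 3 lay near 0 at 279 and near or above 1 at 2603 and 2633, in SLC8A1 replicate 1 was the highest array only for the overlapping probes from 3102 on, and the SLC26A4 probes kept 1 order of the arrays.

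SLC26A4 had another pattern over the arrays. Its 3 probes lay between -0.05 and 0.01 on replicate 1, between 0.75 and 0.84 on replicate 2 and between 1.64 and 1.87 on replicate 3, so the arrays did not overlap and kept the same order with each probe. The brightest, at 2244, had a mean of 0.78 ± 0.85 (SD, n = 3) or 1.72-fold, and those at 2204 and 2151 had 0.86 ± 0.88 and 0.91 ± 0.93. The signals of the probe at 2244 were 2965 units in frozen and 3060 in vitrified embryos on replicate 1, and 4672 and 1494 on replicate 3. At 2204 they were 1404 in both groups on replicate 1 and 2317 and 687 on replicate 3, and at 2151 they were 2167 and 2146 on replicate 1 and 3937 and 1074 on replicate 3. In these units the frozen signal was higher on replicate 3 than on replicate 1 and the vitrified signal lower, with all 3 probes. Without scaling between arrays, this does not show which group differed. The scanner software's errors for single spots were 0.20 on replicate 1 and 0.25 to 0.27 on replicate 3. The mean over the arrays summed up unlike values and its SD exceeded it at 2244, 2204 and 2151 alike.

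SLC9A3 followed the same order of arrays at a much dimmer probe. Its log2 ratios were -0.10, 0.82 and 0.89 on replicates 1, 2 and 3, a mean of 0.54 ± 0.55 (SD, n = 3) or 1.45-fold. The signals were 67.5 units in frozen and 72.3 in vitrified embryos on replicate 1 and 88.7 and 47.7 on replicate 3, and the raw signal was 3.10 to 4.21 times the local background. The scanner software's error was 0.24 on replicate 1 and 0.25 on replicate 3, so the value on replicate 1 cannot be told from 0. With the sign of replicate 2 turned the mean was -0.0092. With normexp background correction and loess on replicates 1 and 3 it was 0.19, against 0.40 for the processed signals of these arrays.

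ATP1B3 was the only one of the 6 genes with lower signals in frozen embryos, and the steadiest across arrays. Its brighter probe, at 795, had log2 ratios of -0.43, -0.27 and -0.42 on replicates 1, 2 and 3, a mean of -0.37 ± 0.09 (SD, n = 3) or 1.29-fold lower. The adjoining probe at 735 gave -0.50, -0.21 and -0.33, a mean of -0.35 ± 0.14. The signals at 795 were 2954 units in frozen and 3985 in vitrified embryos on replicate 1 and 2678 and 3572 on replicate 3, and at 735 they were 786 and 1109 on replicate 1 and 721 and 909 on replicate 3. The scanner software's error was 0.21 for each of these single ratios on replicates 1 and 3, below the size of the ratios themselves. On each array the probe at 795 lay among the lower ratios without being at the end, with 16.9%, 14.7% and 8.84% of the 22839 probes below it on replicates 1, 2 and 3.

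**Figure D3:**
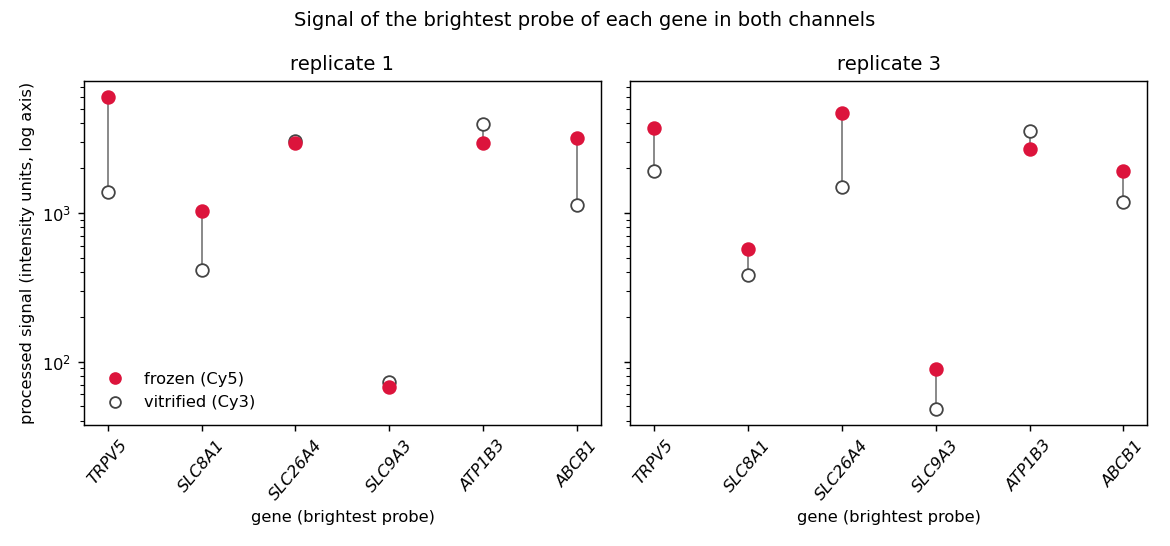
Processed signal in intensity units (vertical axis, log scale) of the brightest probe of each gene (horizontal axis) in frozen (filled, Cy5) and vitrified (open, Cy3) embryos on replicates 1 and 3. The channels met for SLC26A4 and nearly met for SLC9A3 on replicate 1 and stood apart on replicate 3, where SLC26A4 had 4672 against 1494 units, and vitrified lay above frozen only for ATP1B3 on both arrays.

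Set beside each other, the brightest probes fell into 2 array patterns besides the flat one of ATP1B3. TRPV5, SLC8A1 and ABCB1 were highest on replicate 1 and lowest on replicate 3, and the distance between their 3 ratios (Euclidean, over the 3 arrays) was 0.58 for SLC8A1 and ABCB1, 0.71 for TRPV5 and ABCB1 and 1.00 for TRPV5 and SLC8A1. SLC26A4 and SLC9A3, lowest on replicate 1 and highest on replicate 3, were 0.76 apart. Between a gene of the first pattern and one of the second the distance was 1.46 to 2.31. By probe, 10 of the 16 had ratios above 0 on every array and 2 had ratios below 0, where 11.7% and 10.9% of all probes did so. Since the genes were chosen from these ratios, nothing is read from that count.

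Markers of the embryo's layers and of blood also differed between the arrays. The median log2 ratio of the 7 hypoblast markers, the layer that lines the cavity, was -0.13, -0.70 and -0.93 on replicates 1, 2 and 3, with 6 of 7 below 0 in the mean. Their summed signal was 2957 units in frozen and 2182 in vitrified embryos on replicate 1, and 2178 and 5099 on replicate 3. The 7 trophoblast markers had medians of -0.16, 0.24 and 0.05, with 4 of 7 above 0 in the mean, and summed signals of 25078 and 33585 units on replicate 1 and 36657 and 36224 on replicate 3. The 4 epiblast markers, 3 of them below 0 in the mean, had medians of -0.45, -0.21 and -0.30 and summed signals of 8326 and 12307 units on replicate 1 and 6751 and 12487 on replicate 3. The red cell gene HBA had 1.88, -2.23 and -1.79, and HBB2 had 2.62, -3.77 and -3.59. Neither is among the 4 blood markers, which are ALAS2, CD14, CD68 and S100A9. Of these, ALAS2 had 0.34, -1.73 and -1.21, and the means of CD14, CD68 and S100A9 were -0.11, 0.03 and 0.21. The 4 blood markers, 2 of them below 0, had medians of 0.13, -0.20 and 0.06, with summed signals of 396 and 337 units on replicate 1 and 484 and 523 on replicate 3, and the 3 uterine markers, 2 of them below 0, had -0.30, -0.01 and 0.13, with 704 and 1033 units and 252 and 264 units. The marker probes were flagged well above background on replicates 1 and 3, but so were all 22839 probes of the table. Mean log2 signals of their brightest probes over both channels of these arrays ran from 5.39 (HOXA11) to 13.97 (KRT8). HAND1 at 5.60 and ETV4 at 5.61 were also dim. With the sign of replicate 2 turned, the median of the hypoblast means went from -0.55 to -0.10. That of the trophoblast means went from 0.10 to -0.06 and that of the epiblast means from -0.35 to -0.24. For uterine markers it went from -0.39 to 0.03 and for blood markers from -0.04 to 0.17. The part of these marker differences in the ratios of the 6 genes was not tested.

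Among the 6510 other named genes, those with the 3 ratios nearest to each gene were searched by the same distance. For ATP1B3 they were PPID at 0.02 and LDHB, a subunit of lactate dehydrogenase, at 0.07, each with means close to its own, at -0.38. For SLC9A3 they were FAM107B at 0.09 and HSPA2, a heat shock protein, at 0.12, and for SLC26A4 ESRRB, an orphan nuclear receptor, at 0.47 and UPRT at 0.56. LIM2 at 0.46 and CCNG2 at 0.50 were nearest to SLC8A1. ABCB1 had LIM2 at 0.81 and FBP2, a fructose bisphosphatase, at 0.84. TRPV5 had no near match, with SLC35F1 at 1.21 and ASZ1 at 1.34. With 3 ratios per gene there is little to match on, and these are descriptions of this table.

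The other genes of ion transport and efflux had means on both sides of 0. Of 222 listed genes 81 had a named probe in the table, 46 with a mean above 0 and 35 below, and their median log2 ratio was 0.04 against -0.01 over all 6516 genes. Ratios above 0 on every array were found for 11 of them and ratios below 0 for 10, where 10.8% and 11.6% of all genes did so. In limma's test 0 of the 81 had an adjusted p under 0.05 and 4 had an unadjusted p under 0.05, against 4.14% of all genes (1.41% higher and 2.73% lower). Named after their values were seen, the 4 were TRPV6 (unadjusted p = 0.0436) and KCNK1 (0.0372), with means above 0, and SLC4A11 (0.0446) and ABCA1 (0.0173), with means below 0. With the sign of replicate 2 turned the means of TRPV6, KCNK1, SLC4A11 and ABCA1 went from 0.55, 0.47, -0.47 and -0.65 to 0.08, 0.40, -0.42 and -0.08. The medians of the 8 lists lay between -0.08 and 0.15.

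In the sodium pump list 3 of 5 measured genes had a mean above 0. ATP1B1, another beta subunit and the upper end of the list, had 0.02, 0.18 and 0.53, a mean of 0.24 ± 0.26 (SD, n = 3). ATP1B1 thus lay above 0 on replicates 2 and 3 and close to 0 on replicate 1. ATP1B3 lay below 0 on each array, and the difference was not tested. ATP4B, of the gastric proton pump, was the lower end at -0.31 ± 1.23. The median of the list was 0.15 and turned to -0.34 with the sign of replicate 2 turned.

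Of the 11 other genes of sodium-proton exchange and sodium entry 8 had a mean above 0, and the median was 0.08. NHERF1, the scaffold that ties SLC9A3 to the cytoskeleton, was the upper end with 0.51, 0.06 and 0.50, a mean of 0.36 ± 0.26 (SD, n = 3), and its 6 probes had means from -0.02 to 0.37. CHP2, a calcineurin-like cofactor of these exchangers, was the lower end at -0.30 ± 0.11.

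Among the 11 other calcium channel genes 4 had a mean above 0 and the median was -0.08. TRPV6, the closest relative of TRPV5, was the upper end. It had 0.01, 0.71 and 0.94 on replicates 1, 2 and 3, a mean of 0.55 ± 0.48 (SD, n = 3). This is the order of arrays of SLC26A4 and SLC9A3 and not that of the downstream TRPV5 probes. TRPV6 was read by 1 dim probe, with a mean log2 signal of 6.49 over both channels of replicates 1 and 3. CACNB3, a subunit of voltage-gated channels, was the lower end at -0.33 ± 0.55. In calcium extrusion and buffering 7 of 9 other genes had a mean below 0. ATP2B1, a calcium pump of the plasma membrane, was the upper end at 0.22 ± 0.50, and SLC8B1, the mitochondrial exchanger, had -0.33 ± 0.61. CALB1, the calcium-binding protein calbindin, was the lower end, with 0.57, -1.17 and -1.23 and a mean of -0.61 ± 1.02.

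Of the 20 other genes of anion transport 12 had a mean above 0, with a median of 0.03. CA4, a membrane-bound carbonic anhydrase, was the upper end with 1.21, 0.22 and 0.09, a mean of 0.51 ± 0.61 (SD, n = 3), and CLIC1, an intracellular chloride channel protein, the lower end at -0.47 ± 0.63. SLC12A2, which brings sodium, potassium and chloride into epithelial cells, had -0.09 ± 0.06. The chloride channel CFTR has 1 probe on the array and none in the table. No probe could be named for SLC26A6, KCNJ15 or ABCG2, so these were not analysed here. The 6 aquaporins had a median of 0.07, from AQP7 at -0.29 ± 0.25 to AQP5 at 0.32 ± 0.40, and AQP3 had -1.20, 0.65 and 0.12. The 6 potassium channel genes had a median of 0.09, from KCNH2 at -0.34 ± 0.17 to KCNE1 at 0.49 ± 0.49. The other KCNE1 probe had a mean of 0.17. KCNK1, a leak channel, had 0.56, 0.11 and 0.73, a mean of 0.47 ± 0.32.

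The 13 other genes of the ABC family had 9 means above 0 and a median of 0.08. ABCB4, the phospholipid pump most like ABCB1 in sequence, had 0.18, -0.13 and -0.18 on replicates 1, 2 and 3, a mean of -0.04 ± 0.19 (SD, n = 3). ABCC1, another multidrug pump, was the upper end with -0.32, 0.57 and 0.65, a mean of 0.30 ± 0.54. ABCA1, which exports cholesterol, was the lower end with -0.17, -0.86 and -0.92, a mean of -0.65 ± 0.42, and the only one of the 81 genes with 1 sign on every array and a mean past 1.5-fold. Over all genes, 0.322% met that rule on the higher and 1.2% on the lower side. The probes of ABCB4, ABCC1 and ABCA1 were dim. Their mean log2 signals over both channels of replicates 1 and 3 were 5.64, 5.97 and 5.89.

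**Figure D4:**
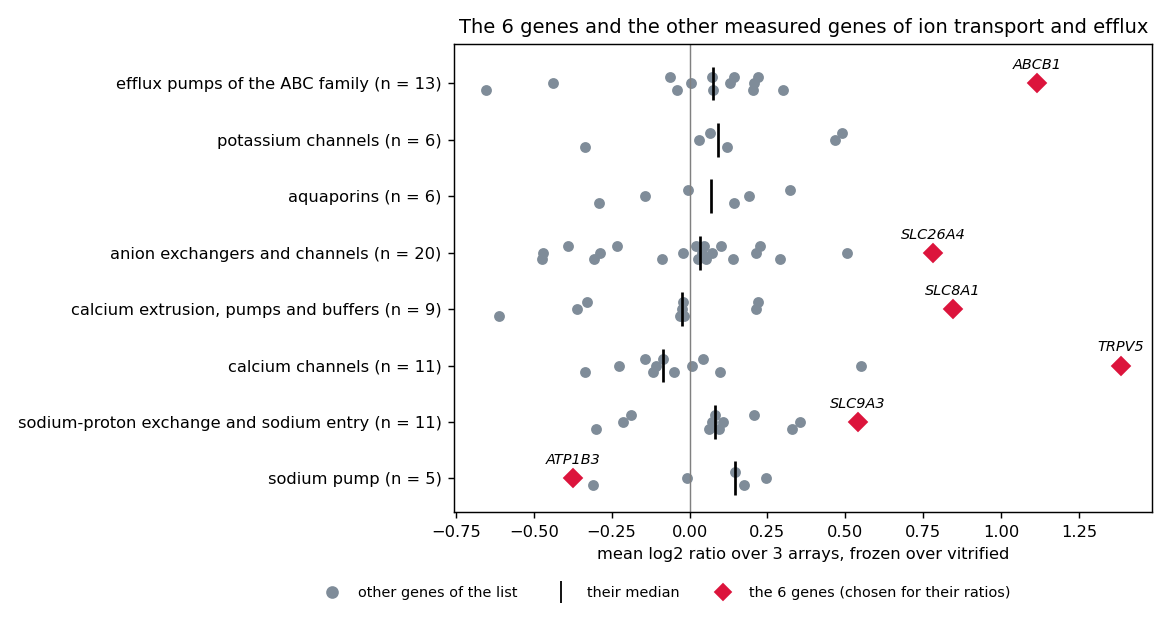
Mean log2 ratio over the 3 arrays (horizontal axis) of the measured genes in 8 lists of ion transport and efflux (rows, with the number of other genes in each). Grey points are the other genes, bars their medians and diamonds the 6 genes, which were chosen for their ratios; the medians lie between -0.08 and 0.15, TRPV6 at 0.55 is the highest grey point and ABCA1 at -0.65 the lowest.

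The sizes of the ratios depend on how replicate 2 is read. With its sign turned the means were 0.68 for TRPV5, 0.43 for SLC8A1, 0.28 for SLC26A4, -0.0092 for SLC9A3, -0.19 for ATP1B3 and 0.34 for ABCB1. SLC26A4 and SLC9A3 also hung on single arrays. SLC26A4 had 1.20 without replicate 1, 0.80 without replicate 2 and 0.35 without replicate 3. SLC9A3 had 0.86, 0.40 and 0.36 in the same order. The other 4 genes kept means of 1.01 to 1.60 (TRPV5), 0.61 to 0.97 (SLC8A1), -0.42 to -0.34 (ATP1B3) and 0.93 to 1.32 (ABCB1) when 1 array was left out.

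**Figure D5:**
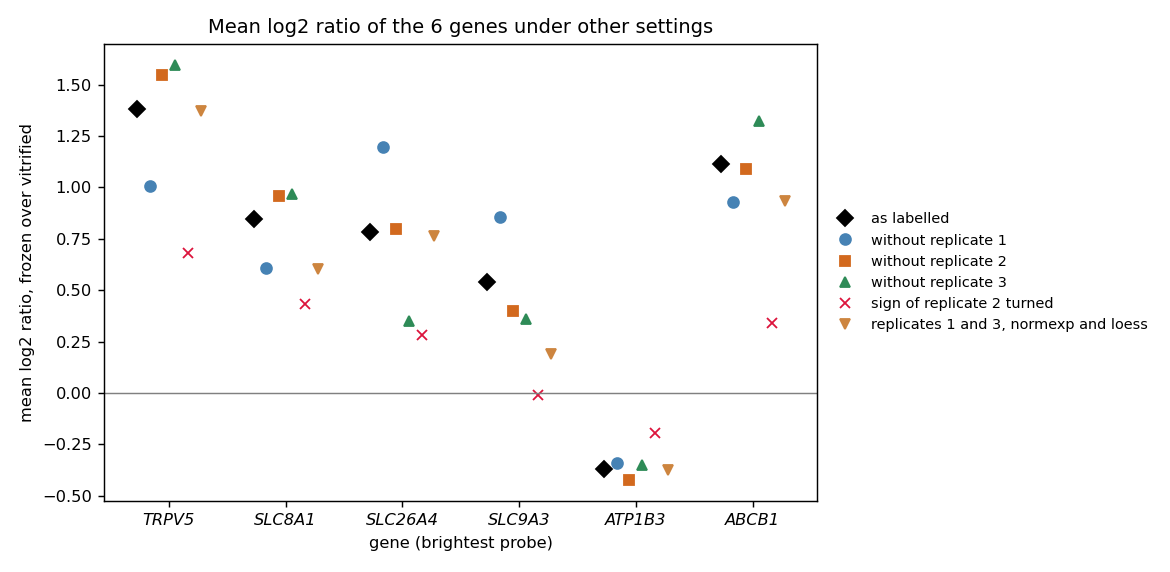
Mean log2 ratio of the brightest probe (vertical axis) of each gene (horizontal axis) as labelled, with 1 array left out, with the sign of replicate 2 turned and after normexp and loess on replicates 1 and 3; symbols are the settings. The values of each gene kept their sign except SLC9A3 at -0.0092 with the sign of replicate 2 turned, and SLC26A4 ranged from 0.28 to 1.20.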

How the data were processed

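The authors deposited a value table of log2 ratios for 3 arrays and Agilent Feature Extraction 10.10.1.1 output (version per the submitters' processing notes) for replicates 1 and 3, but none for replicate 2 was analysed here. Spots carry raw and processed intensities in each channel, per the file headers, the latter spatially detrended and dye-normalized. The deposited log10 ratio (red to green) comes with an error, which was used after conversion to log2. No source used here states the filter that left 22839 of 43603 gene probes in the table; all of them were well above background in both scanned arrays and 0 were saturated. The table has 0 other sample columns. From these files, 14317 probes were named through accessions, gene identifiers, symbols or shared transcripts with RefSeq's current rabbit gene table (assembly mOryCun1.1), and a gene was represented by its brightest probe. Ratios were tested against 0 with limma 3.58.1 in R 4.3.3 (lmFit, eBayes, Benjamini-Hochberg over all 22839 probes), after a trial on simulated data. Joins used pandas 2.3.3 under Python 3.11.15. The members and lists were chosen with earlier results of these data known. Named genes are all probes of the 6 genes, 17 fixed neighbours where measured (some are not reported here), the ends of each list with at least 5 genes and the 2 nearest genes per member. Alternatives were the sign of replicate 2, leaving out an array, median centring, the scanner files with processed signals or with normexp (offset 50) and loess, a trended robust prior, a dye covariate, a signal filter and the mean over probes. The number of arrays limits the precision.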

Additional observations from a re-analysis of the deposited data

How the results depend on the processing

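Of the 6 genes, TRPV5 (0.68), ATP1B3 (-0.19) and ABCB1 (0.34) moved by more than the SD over arrays with the sign of replicate 2 turned, and SLC9A3 changed sign (-0.0092); the cause was not tested. Their other values stayed within that SD and kept their sign under the alternatives run. The count of probes with an adjusted p under 0.05 was 0 under each alternative with 3 arrays and on the scanner files, and ranged from 0 to 796 with 1 array left out, 796 being without replicate 1. At an unadjusted p under 0.05 it was 1020, and 351 to 3720 with 1 array left out. The count of probes with 1 sign and a mean past 1.5-fold was 432, and 280 with the sign of replicate 2 turned, 469 to 1193 with 1 array left out, 1045 on the processed signals of replicates 1 and 3, 240 with normexp and loess on the same arrays (the cause was not tested), and 236 without the dimmest probes (fewer probes tested). With 1 array left out and on the scanner files, only 2 arrays had to share a sign. Those counts are therefore not comparable with 432. Among list medians, the sodium pump turned to -0.34 with the sign of replicate 2 turned, to -0.15 on the processed signals and ranged from -0.15 to 0.38 with 1 array left out. Anion transport turned to -0.0922 and -0.0926 in the same 2 settings and ranged from -0.0926 to 0.0836. The processed signals of replicates 1 and 3 give the ratios left without replicate 2, so both count as 1 setting here and above. Sodium-proton exchange turned to -0.0214 with normexp and loess and ranged from -0.0131 to 0.17. Calcium channels ranged from -0.29 to -0.0543 and potassium channels from 0.0916 to 0.23. The test of ratios within arrays is itself paired, and no further block on the replicate number can be fitted, because each number has 1 ratio. Signals near background limit SLC9A3 and the upstream probes of TRPV5 and SLC8A1. Dim probes also limit genes of the lists, among them SLC8B1, ABCB4, ABCA1, ABCC1 and TRPV6. Their mean log2 signals were 4.62, 5.64, 5.89, 5.97 and 6.49.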
